A study of Homo sapiens with 12 samples.

Results

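The 49 genes described here code for the extracellular matrix that endometrial epithelium and stroma build between them, and for the enzymes that assemble it: 5 fibrillar collagen chains, 3 chains of collagen VI, 8 basement membrane and other collagens, 7 laminin chains, 4 linkers of the basement membrane, 10 glycoproteins and elastic fibre proteins, 4 proteoglycans and 8 collagen-modifying enzymes. They were chosen by symbol, and all 49 were found among the 58735 genes of the count table. RNA was measured in 2 human endometrial cell lines, HEC-1A (labelled HEC1A), an epithelial line from an adenocarcinoma, and T-HESC (labelled THESC), a stromal line of fibroblast origin immortalised with telomerase. Each line received either AG-205, a small molecule sold as an inhibitor of the progesterone receptor membrane component PGRMC1, at 15 µM for 32 h, or only its solvent DMSO, and each of the 4 groups holds 3 libraries. All groups grew in medium with fetal bovine serum, and each cell type is represented by a single line, so that cell type and line cannot be told apart.

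Library totals ran from 7168542 to 15178276 counts. The labelled cell types were checked with markers: all 8 epithelial markers were above the floor in HEC-1A, where their summed level was 1493 to 1649 CPM (counts relative to the scaled library total) with DMSO, against 237.8 to 341 CPM in T-HESC with DMSO, in which CDH1 and ESRP1 did not exceed 3 counts in any library. The 8 stromal markers summed to 4534 to 6499 CPM in T-HESC with DMSO and to 11.7 to 15.0 CPM in HEC-1A, with PDGFRA, TWIST1 and MME at 3 counts or fewer. Endothelial markers summed to at most 1.07 CPM and leukocyte markers to at most 2.70 CPM in any library. Since each library comes from a whole culture, fewer cells expressing a gene and less RNA per cell cannot be told apart. In T-HESC, AG-205 replicate 1 stood apart from the other libraries, and the results that it moves are given with and without it.

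The matrix beneath an epithelium differs from that of the stroma. The basement membrane beneath epithelial cells is a sheet of laminin trimers, each of an alpha, a beta and a gamma chain, tied through nidogens, perlecan and agrin to a network of collagen IV. In the stroma, fibroblasts secrete fibrillar collagens of types I, III and V with collagen VI, fibronectin, elastic fibre proteins and small leucine-rich proteoglycans. Before secretion, prolyl hydroxylases (P4HA) and lysyl hydroxylases (PLOD) modify the collagen chains, and outside the cell lysyl oxidases (LOX and its relatives) cross-link them. In the endometrium this matrix is remodelled with every menstrual cycle.

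Most of the set was far more abundant in the stromal line. With DMSO alone, the members made up 4.59 to 5.76% of all assigned counts in the T-HESC libraries and 0.631 to 0.715% in the HEC-1A libraries. Of the 48 members with enough counts to be tested, 40 were called higher in T-HESC and 4 lower (edgeR's quasi-likelihood test, where a call required a log2 fold change beyond 1 or -1 together with an adjusted p below 0.05). Among all genes tested, 22.3% were called higher and 22.3% lower. The median log2 fold change of the members was 8.02, against -0.02 for all genes tested. It was 7.75 when the 8 tested members that had at most 3 counts in every HEC-1A library with DMSO were set to the change that this floor allows. The 4 members lower in the stromal line were COL18A1, LAMA5, LAMA3 and LAMB3, which code for a basement membrane collagen and laminin chains, and 4 others, NID1, AGRN, ELN and VCAN, were not called in either direction.

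**Figure D1:**
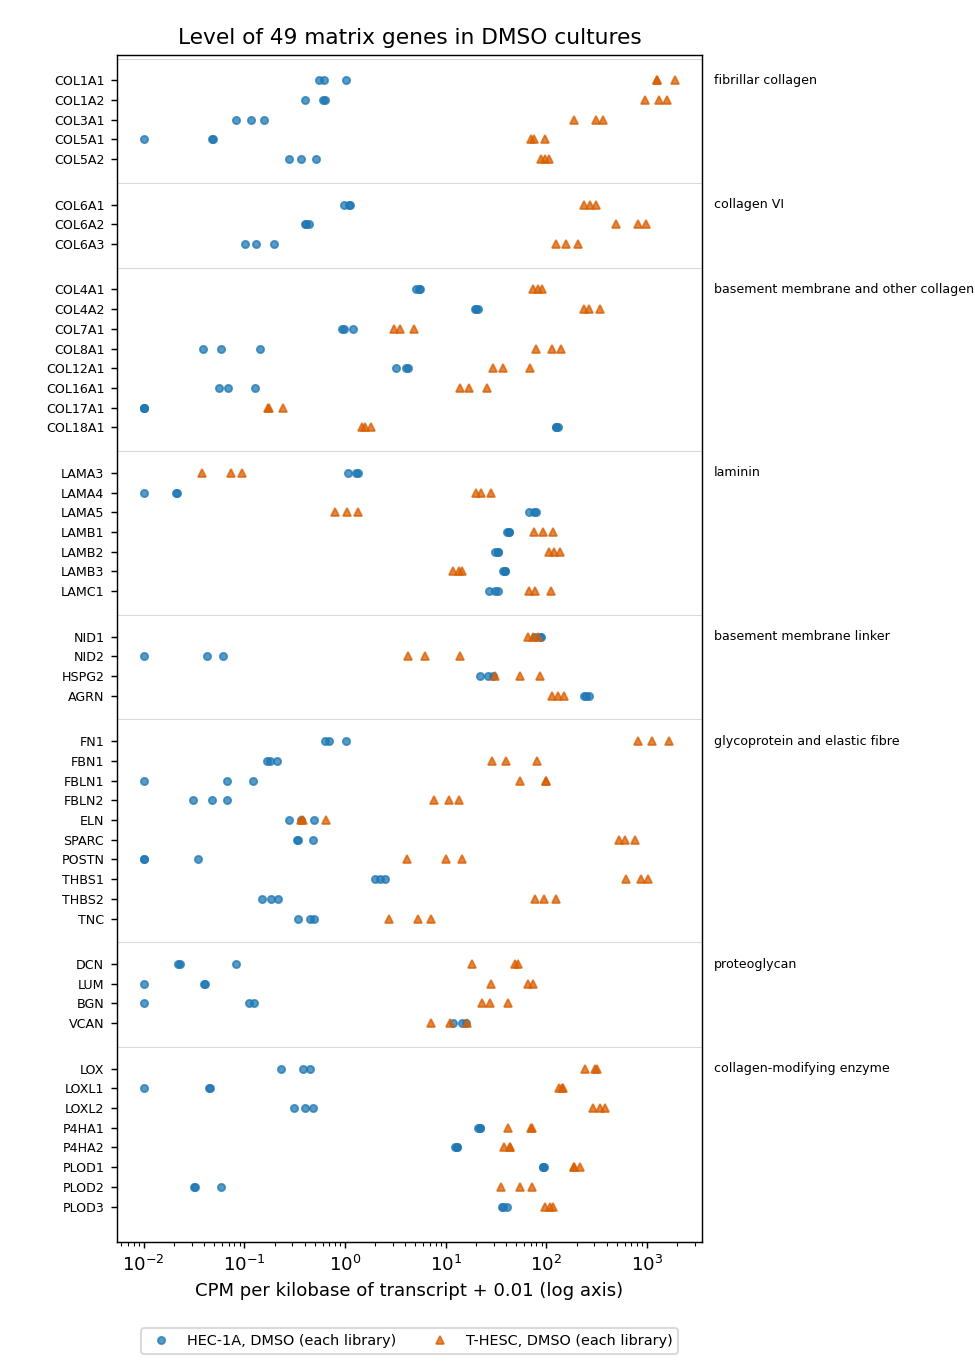
Level of each of the 49 genes in the DMSO cultures, as CPM per kilobase of transcript plus 0.01 on a log axis, with 1 point per library (circles HEC-1A, triangles T-HESC, 3 libraries each), ordered by class. Most T-HESC points lie to the right of the HEC-1A points, while COL18A1, LAMA3, LAMA5, LAMB3 and AGRN have the opposite order and NID1, ELN and VCAN overlap between the lines.

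The 5 fibrillar collagen chains were all called higher in T-HESC, by 8.02 to 11.51 on the log2 scale. COL5A1, a regulatory chain of collagen V fibrils, had the largest change of the class: it was at 0.331, 0.322 and 0 CPM in the HEC-1A libraries 1 to 3 and at 830.0, 595 and 639 CPM in the T-HESC libraries 1 to 3 (log2 fold change 11.51, SE 0.36, adjusted p 2.1e-08), although the HEC-1A value rests on 0 to 4 counts a library. COL5A2, its partner chain, had the smallest change, from 1.82, 2.41 and 3.45 CPM to 728, 663 and 603 CPM (log2 fold change 8.02, SE 0.21, adjusted p 1.2e-08). Even there, the lowest T-HESC library lay far above the highest HEC-1A library. The chains of collagen I, the main fibril of the stroma, were the most abundant members in T-HESC: COL1A1 stood at 1478 ± 384 CPM per kilobase (SD, n = 3), COL1A2 at 1297 ± 319.7 and fibronectin (FN1) at 1197 ± 422, values that overlap within their spread. The level of COL1A1 per kilobase was 1.15 ± 0.182 times that of COL1A2 (SD, n = 3).

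Collagen VI, which forms beaded filaments around stromal cells, was called higher in T-HESC for each of its 3 chains, by 8.00 to 10.86 on the log2 scale. COL6A2 went from 1.49, 1.37 and 1.36 CPM in HEC-1A to 3365, 2838 and 1714 CPM in T-HESC (log2 fold change 10.86, SE 0.35, adjusted p 2.6e-08), and COL6A1 from 4.71, 4.59 and 4.08 CPM to 1310.0, 1135 and 998 CPM (log2 fold change 8.00, SE 0.17, adjusted p 5.3e-09). The COL6A1 and COL6A2 genes lie next to each other on chromosome 21, yet in T-HESC the level of COL6A1 per kilobase was only 0.375 ± 0.0888 times that of COL6A2 (SD, n = 3).

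Of the other collagens, 6 of 7 tested were called higher in T-HESC and 1 lower. COL8A1, a short-chain collagen of vessel walls and basement membranes, went from 0.744, 0.161 and 0.272 CPM in HEC-1A to 781, 637 and 436 CPM in T-HESC (log2 fold change 10.57, SE 0.40, adjusted p 6.3e-08). Its HEC-1A value rests on 2 to 9 counts a library. COL18A1, the basement membrane collagen whose C-terminal fragment is endostatin, had the opposite order, with 677, 683 and 703 CPM in HEC-1A and 9.76, 7.99 and 8.49 CPM in T-HESC (log2 fold change -6.30, SE 0.12, adjusted p 4.2e-09). Its annotated exons share 18.5% of their length with SLC19A1 on the opposite strand, and whether the counting used strand is not stated in the sources used here. COL17A1, a transmembrane collagen of hemidesmosomes, was too low to be tested, with 0 counts in all HEC-1A libraries with DMSO and 11 to 13 counts in those of T-HESC, at least 4.10-fold higher when each HEC-1A library is set to 3 counts.

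The chains of collagen IV, the network of the basement membrane, were present in both lines and differed by a similar factor. COL4A1 (chr13:110148963-110307157, minus strand, GRCh38) had 33.2, 35.5 and 36.2 CPM in HEC-1A and 592, 484 and 547 CPM in T-HESC (log2 fold change 3.95, SE 0.12, adjusted p 2.0e-08), and COL4A2 (chr13:110305812-110513209, plus strand) had 127, 136 and 130.3 CPM and 2185, 1697 and 1537 CPM (log2 fold change 3.78, SE 0.16, adjusted p 1.0e-07). Both genes start head to head on chromosome 13. The strip between their RefSeq start sites, chr13:110307158-110307283 of GRCh38.p14 with 126 bases, is shown because 1 piece of DNA serves as the upstream sequence of both, read here along the plus strand towards COL4A2 with a CCAAT box (bases 22 to 26) and a GC box (bases 62 to 67) in capitals.
COL4A1 to COL4A2: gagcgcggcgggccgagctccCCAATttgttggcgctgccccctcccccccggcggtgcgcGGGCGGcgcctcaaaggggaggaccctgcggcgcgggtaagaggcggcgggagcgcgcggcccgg
The last 26 bases lie in exons of longer COL4A2 transcripts in the GENCODE annotation, and the rest in no annotated exon. Per kilobase, the level of COL4A1 was 0.263 ± 0.00966 times that of COL4A2 in HEC-1A and 0.300 ± 0.0450 times in T-HESC (SD, n = 3 each), values whose ranges overlapped between the lines.

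The laminins divided between the lines. Of the 7 chains, 4 were called higher in T-HESC (LAMA4, LAMB1, LAMB2 and LAMC1) and 3 lower (LAMA5, LAMA3 and LAMB3). LAMA5, the alpha chain of the main laminin of mature epithelial basement membranes, was at 779, 909.8 and 855 CPM in HEC-1A and at 15.4, 11.9 and 8.99 CPM in T-HESC (log2 fold change -6.12, SE 0.21, adjusted p 3.1e-08). LAMA4, the alpha chain of mesenchymal and endothelial laminins, was nearly absent from HEC-1A, with 2 counts over the 3 libraries, and was at 205, 164 and 144 CPM in T-HESC. The ratio of their counts scaled to library size was 3086, with a counting interval from 853.8 to 25484. LAMC1, the gamma chain that both trimers contain, differed by only 1.48 on the log2 scale. Relative to LAMC1 per kilobase, LAMA5 stood at 2.43 ± 0.0566 in HEC-1A and at 0.0133 ± 0.00555 in T-HESC, where LAMA4 stood at 0.294 ± 0.102 (SD, n = 3 each). LAMA3 and LAMB3, chains of the laminin of epithelial anchoring complexes, had log2 fold changes of -4.43 and -1.53. LAMB2 has 1 annotated pseudogene that could share its reads, so its value is less certain.

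Among the linkers, NID2, a nidogen that ties laminin to collagen IV, had 0.248, 0.161 and 0 CPM in HEC-1A and 30.4, 20.4 and 68.0 CPM in T-HESC (log2 fold change 8.03, SE 0.75, adjusted p 1.7e-05). The HEC-1A values rest on 0 to 3 counts, so that this fitted change is no bound, and 30.7% of its exon length overlaps RTRAF on the opposite strand. The other nidogen, NID1, was at similar levels (log2 fold change -0.20, SE 0.11, adjusted p 0.133). AGRN, which codes for agrin and was the most abundant member per kilobase in HEC-1A (250.3 ± 13.1 CPM per kilobase, SD, n = 3), had 1744, 1935 and 1822 CPM there and 1094, 842 and 965 CPM in T-HESC. The groups did not overlap and the test passed, but the change was under the fold limit (log2 fold change -0.93, SE 0.12, adjusted p 1.5e-04), and in the fit of all 12 libraries its adjusted p was 0.083.

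Of the glycoproteins and elastic fibre genes, 9 of 10 were called higher in T-HESC. SPARC, a collagen-binding matricellular protein, went from 1.16, 1.13 and 1.63 CPM in HEC-1A to 2647, 2113 and 1835 CPM (log2 fold change 10.71, SE 0.24, adjusted p 7.3e-09). ELN, which codes for elastin, was the exception and was close to its detection limit in both lines, with 1.65, 1.21 and 0.907 CPM and 2.18, 1.26 and 1.20 CPM, so that the groups overlapped (log2 fold change 0.31, SE 0.36, adjusted p 0.455). Without T-HESC DMSO replicate 1 the sign of the ELN difference turned, to -0.02. POSTN (periostin) had 1 count over all HEC-1A libraries with DMSO and a scaled ratio of 1186, with a counting interval from 212 to 46882.

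The 3 small leucine-rich proteoglycans, which regulate fibril assembly, were called higher in T-HESC, while the large proteoglycan versican was not. LUM (lumican) had 2 counts over the 3 HEC-1A libraries and 199, 177 and 76.3 CPM in T-HESC, a scaled ratio of 2789 with a counting interval from 771.6 to 23033. VCAN (versican) was at 145, 195 and 179.9 CPM in HEC-1A and at 136, 89.4 and 201 CPM in T-HESC, with overlapping groups (log2 fold change -0.29, SE 0.26, adjusted p 0.341). Without T-HESC DMSO replicate 3 its log2 fold change was -0.59, still under the fold limit, with an adjusted p of 4.9e-04.

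All 8 collagen-modifying enzymes were called higher in T-HESC, but over a wide range. LOXL1, a cross-linking enzyme of elastic fibres, had 2 counts over the HEC-1A libraries and 345, 339.6 and 313 CPM in T-HESC, a scaled ratio of 5937 with a counting interval from 1643 to 49032. PLOD1, a lysyl hydroxylase of the helical part of collagens, differed least, with 276, 282 and 277 CPM in HEC-1A and 639.6, 559 and 557 CPM in T-HESC (log2 fold change 1.07, SE 0.10, adjusted p 1.2e-05). LOX, LOXL1, LOXL2 and PLOD2 had fitted log2 fold changes of 9.70 to 12.28, of which those of LOXL1 and PLOD2 rest on 3 counts or fewer in each HEC-1A library, and P4HA1, P4HA2, PLOD1 and PLOD3 had changes of 1.07 to 1.71. That grouping was made after the values were seen. On the opposite strand, LOXL1-AS1 overlaps 9.21% of the exon length of LOXL1.

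Related genes outside the set followed both patterns. Of 12 other collagen and laminin chains tested, 4 were called higher in T-HESC and 5 lower, among them COL13A1, with 0 to 2 counts in the HEC-1A libraries and 137 ± 24.1 CPM in T-HESC (SD, n = 3), and COL4A3, with 8.47 ± 1.66 CPM in HEC-1A (SD, n = 3) and 1 to 2 counts in the T-HESC libraries. From this and the next lists the genes with the smallest p are named. Of 21 genes for collagen folding, secretion and processing, 12 were higher and 1 lower. The prolyl hydroxylase relative P3H3 and the procollagen peptidase ADAMTS2 had at most 2 counts in a HEC-1A library and 299.7, 266 and 209 CPM and 132, 103 and 111 CPM in the T-HESC libraries, and the lysyl oxidase LOXL4 had a log2 fold change of 6.79. Matrix receptors were mixed, with 12 of 20 higher and 6 lower: the hyaluronan receptor CD44 (log2 fold change 9.91) and the syndecan SDC2 (6.54) were higher and the integrin chain ITGB8 (-7.72) lower. In the TGF-beta pathway 9 of 15 genes were higher and 0 lower, among them TGFB1 (log2 fold change 5.93), LTBP2 (6.32) and CCN1 (2.57). The medians of these lists were 0.21, 1.58, 2.08 and 2.54, against -0.02 for all genes, and did not move when genes at the floor of a line were set to it.

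AG-205 moved some of these genes in HEC-1A, in both directions, but only 1 beyond the fold limit for a call. Of 34 members tested, 0 were called higher and 1, COL12A1, lower, where 2.58% of all genes tested were called higher and 0.205% lower. By an adjusted p under 0.05 alone, 3 rose (COL6A1, COL7A1 and P4HA2) and 4 fell (COL4A1, COL12A1, THBS1 and COL4A2), against 7.35% of all genes higher and 4.28% lower. The median log2 fold change of the members was -0.14 and that of all genes 0.01. Beside the 0 called higher, 6 members had an unadjusted p under 0.05 and a higher level, and DESeq2 called 0 higher. In both directions 16 of the 34 members had such a p, 10 of them lower. Of the 14122 genes tested, 3693 had such a p, 1626 of them lower.

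Among the members that fell were both chains of collagen IV. COL4A1 was at 33.2, 35.5 and 36.2 CPM in the DMSO libraries 1 to 3 and at 22.3, 21.0 and 19.2 CPM in the AG-205 libraries 1 to 3 (log2 fold change -0.70, SE 0.10, adjusted p 9.7e-04). COL4A2 was at 127, 136 and 130.3 CPM and at 109, 90.6 and 75.2 CPM (log2 fold change -0.48, SE 0.12, adjusted p 0.022). For each gene, every AG-205 library lay below every DMSO library. The 126 bases printed above are the upstream sequence of both genes, and whether they play a part in the fall was not tested. The fitted falls of the 2 genes differed in size, and whether the genes fell by the same factor was not tested. COL4A1 stood at 0.263 ± 0.00966 times COL4A2 per kilobase with DMSO and at 0.227 ± 0.0245 times with AG-205 (SD, n = 3 each). The highest AG-205 value, 0.251, lay just below the lowest DMSO value, 0.257. For ratios of other gene pairs, how often the groups are apart was not determined. The GC content is 55.2% for COL4A1 and 61.8% for COL4A2, and the part of base composition in their ratio was not tested. The adjusted p of COL4A2 rose to between 0.060 and 0.091 when AG-205 replicate 2 or any 1 DMSO library was left out.

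COL12A1 (chr6:75084326-75206267, minus strand), whose product sits on the surface of collagen fibrils, had 38.0, 50.0 and 47.4 CPM with DMSO and 23.8, 24.6 and 16.1 CPM with AG-205 (log2 fold change -1.02, SE 0.15, adjusted p 0.001). Its groups were apart, but its fold lay at the limit for a call: the log2 fold change was -0.87 without AG-205 replicate 3, -0.94 without DMSO replicate 2 and -0.98 without DMSO replicate 3, each no longer called. THBS1 (chr15:39581079-39599466, plus strand), which codes for thrombospondin-1, a matricellular protein that binds and activates latent TGF-beta, had 15.4, 19.3 and 17.5 CPM with DMSO and 9.66, 10.4 and 8.59 CPM with AG-205 (log2 fold change -0.82, SE 0.13, adjusted p 0.0021). All 3 AG-205 libraries were below all 3 DMSO libraries for both genes. FSIP1 and THBS1-AS1, on the opposite strand, overlap 4.89% and 4.49% of the exon length of THBS1.

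In the other direction, COL6A1 (chr21:45981770-46005050, plus strand) had 4.71, 4.59 and 4.08 CPM with DMSO and 8.59, 8.96 and 7.06 CPM with AG-205 (log2 fold change 0.93, SE 0.16, adjusted p 0.0031), from 45 to 128 counts a library. Its partner chains did not pass the test, with log2 fold changes of 0.06 ± 0.28 (SE) for COL6A2 and -0.65 ± 0.37 (SE) for COL6A3, which were at 1.14, 1.75 and 1.41 CPM and 0.872, 0.656 and 1.18 CPM with AG-205. COL7A1 (chr3:48564073-48595329, minus strand), which codes for the anchoring fibril collagen that fastens epithelial basement membranes to the stroma, had 8.60, 11.1 and 8.98 CPM with DMSO and 18.7, 17.4 and 13.4 CPM with AG-205 (log2 fold change 0.84, SE 0.15, adjusted p 0.0043). P4HA2 (chr5:132190147-132295315, minus strand), a catalytic subunit of prolyl 4-hydroxylase, had 58.6, 56.1 and 59.4 CPM and 73.9, 74.7 and 72.8 CPM (log2 fold change 0.38, SE 0.09, adjusted p 0.013), a small and even difference with groups apart. Its adjusted p was 0.059 to 0.095 when any 1 DMSO library was left out, and 5.41% of its exon length overlaps P4HA2-AS1 on the opposite strand.

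**Figure D2:**
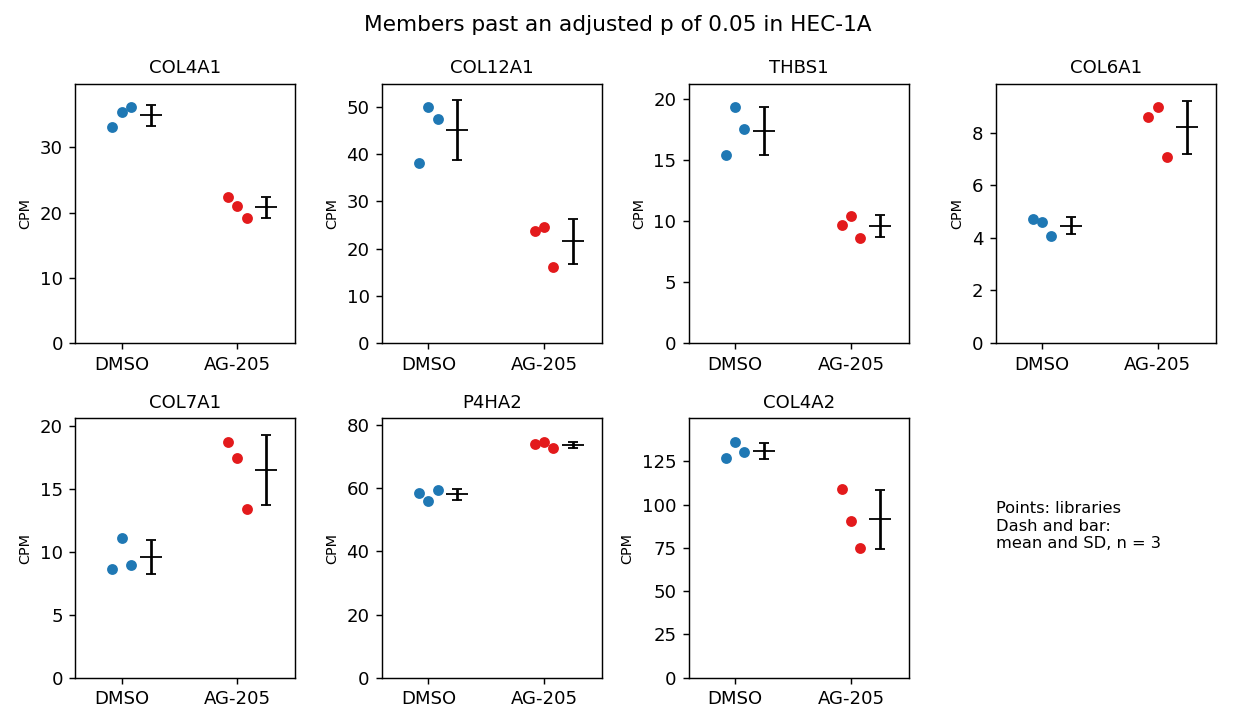
CPM in the HEC-1A libraries for the 7 members with an adjusted p under 0.05, on linear axes that start at 0, with 1 point per library and the mean with its SD (n = 3) beside each group. The AG-205 points lie below all DMSO points for COL4A1, COL12A1, THBS1 and COL4A2 and above them for COL6A1, COL7A1 and P4HA2.

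The upstream sequences of a gene that fell and of a gene that rose are shown to set beside the shared strip of the collagen IV genes. They are the 60 bases before the RefSeq start sites (GRCh38.p14) of THBS1 (chr15:39581019-39581078, plus strand) and COL7A1 (chr3:48595330-48595389, minus strand), 5′ to 3′, with GC boxes in capitals, and neither window overlaps an annotated exon.
THBS1: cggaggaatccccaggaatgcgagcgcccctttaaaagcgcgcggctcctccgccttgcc
COL7A1: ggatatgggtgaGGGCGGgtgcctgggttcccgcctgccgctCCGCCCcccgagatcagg
Promoter windows from 250 bases before to 50 after the start were matched for 38 of the 49 members (45 windows), with both strands searched. The GC box GGGCGG was in 71.1% of the member windows and in 45.0% of all 35116 windows, CCAAT in 24.4% and 34.6%, TATAAA in 15.6% and 11.5%, and the AP-1 site TGANTCA in 6.67% and 7.71%. The sterol regulatory element written as TCACNCCAC was in 0 of the 45 member windows and in 1.13% of all windows. The GC box was in the longer windows of COL4A1, COL4A2, COL12A1 and THBS1, which fell, and of COL7A1, which rose. P4HA2, which also rose, had none in its window or in its 60 upstream bases. COL6A1, which rose as well, had no window. The 60 upstream bases of COL12A1 and of P4HA2 lie wholly in annotated exons of these genes. Whether the GC box plays a part in the changes was not tested. A match is a description of the letters and not evidence of binding.

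Members that did not pass the adjusted test in HEC-1A included the 6 laminin chains and 3 linkers tested (LAMA4 and NID2 were too low). Over all 34 members, passing or not, the groups were apart with every AG-205 library lower for 9, against 18.2% of all genes tested. They were COL4A1, COL4A2, COL12A1 and THBS1, which passed, and LAMA3, LAMA5, LAMB1, LAMC1 and HSPG2, which did not. Only COL6A1, COL7A1 and P4HA2 were apart with every AG-205 library higher, against 14.2% of all genes. Of the laminin chains, LAMA3 and LAMA5 had the lowest adjusted p, with log2 fold changes of -0.55 ± 0.17 (SE) and -0.54 ± 0.17 (SE) and adjusted p of 0.058 and 0.063. A pair of beta chains had the opposite sign, 0.34 ± 0.15 (SE) for LAMB2 and 0.31 ± 0.11 (SE) for LAMB3. Relative to LAMB1 per kilobase, LAMB3 stood at 0.915 ± 0.0373 with DMSO and 1.28 ± 0.0717 with AG-205 (SD, n = 3 each). These values were apart in all libraries, as were those of LAMB2 relative to LAMB1. The ratios of LAMA5 to LAMC1 and of COL1A1 to COL1A2 overlapped between the groups. How often ratios of other gene pairs are apart in HEC-1A was not determined. The GC content is 59.5% for LAMB3 and 49.4% for LAMB1, and the part of base composition in their ratio was not tested.

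HEC-1A AG-205 replicate 3, the shallowest library, was the lowest of the 6 for 16 of the 34 members, where 29.1% of all genes tested were lowest in it. Its transcripts over 8 kb had a median level of -0.27 on the log2 scale relative to the other 5 HEC-1A libraries and those under 2 kb of 0.12, and the members' transcripts are long, with a median of 5612 bases against 3115 for the 13701 genes tested in T-HESC. Without this library 6 members rose and 8 fell by adjusted p, where 14.5% of all genes rose and 13.3% fell. With levels corrected for GC content and transcript length, 6 members rose and 12 fell, where 9.27% of all genes rose and 16.3% fell. The 7 members named above passed in both cases, with the same signs. In a fit of all 12 libraries, where the larger spread of T-HESC enters the error, none of the 7 passed and the lowest adjusted p was 0.368.

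Few genes of the related lists were called in HEC-1A, while by adjusted p alone 11.6% of all genes tested passed in either direction. None of the 10 other collagen and laminin chains tested was called, but 3 rose by adjusted p alone, with the smallest p for COL4A3, a chain of a specialised collagen IV network (log2 fold change 0.93, SE 0.18, adjusted p 0.0067). Of 16 genes for collagen folding, secretion and processing, 1 was called higher, PCOLCE, an enhancer of procollagen cleavage (log2 fold change 1.16, SE 0.30, adjusted p 0.024), at 0.827, 0.644 and 0.998 CPM with DMSO and 1.88, 1.82 and 1.65 CPM with AG-205. By adjusted p alone 2 of this list rose and 4 fell. Of 18 matrix receptors 0 were called, and 1 fell by adjusted p alone, the syndecan SDC1 (log2 fold change -0.39, SE 0.10, adjusted p 0.027). In the TGF-beta pathway, TGFB1 itself was called higher (5.29, 4.59 and 6.17 CPM to 12.7, 14.1 and 12.8 CPM, log2 fold change 1.34, SE 0.15, adjusted p 1.1e-04), and CCN2, a matricellular protein that is a TGF-beta target, lower (82.4, 77.0 and 87.0 CPM to 37.2, 25.9 and 44.9 CPM, log2 fold change -1.16, SE 0.16, adjusted p 5.7e-04), of 13 tested. By adjusted p alone 1 of this list rose and 4 fell, the others being SMAD3, CCN1 and TGFBR3 (log2 fold changes -0.74, -0.51 and -0.78). List medians were 0.39, -0.05, -0.02 and -0.01. Of the 8 epithelial markers, 2 were called higher, KRT19 and CLDN4 (log2 fold changes 1.09 and 1.22), and the summed level of the list was 2154 to 2226 CPM with AG-205. Its part in the results was not tested. None of the 3 stromal markers tested was called.

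In T-HESC, where the set is abundant, no member passed the test. Of 48 members tested, 0 were called higher and 0 lower, against 0.08% and 0% of all genes tested (edgeR). At an unadjusted p under 0.05 there were 2, ELN and COL3A1, both lower, against 740 of the 13753 genes tested, 247 of them lower. DESeq2 called 0 members. The median log2 fold change was -0.37 (0.02 for all genes), and 39 of the 48 values were below 0, against 6544 of the 13753 genes tested. Without AG-205 replicate 1 the median was -0.07 (-0.02 for all genes), with 29 of 49 values below 0 and 20 above. The libraries of T-HESC varied far more than those of HEC-1A, with a biological coefficient of variation of 33.6% against 10.1%, and the median SE of a member was 0.42, in a range from 0.22 (P4HA2) to 0.90 (NID2).

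**Figure D3:**
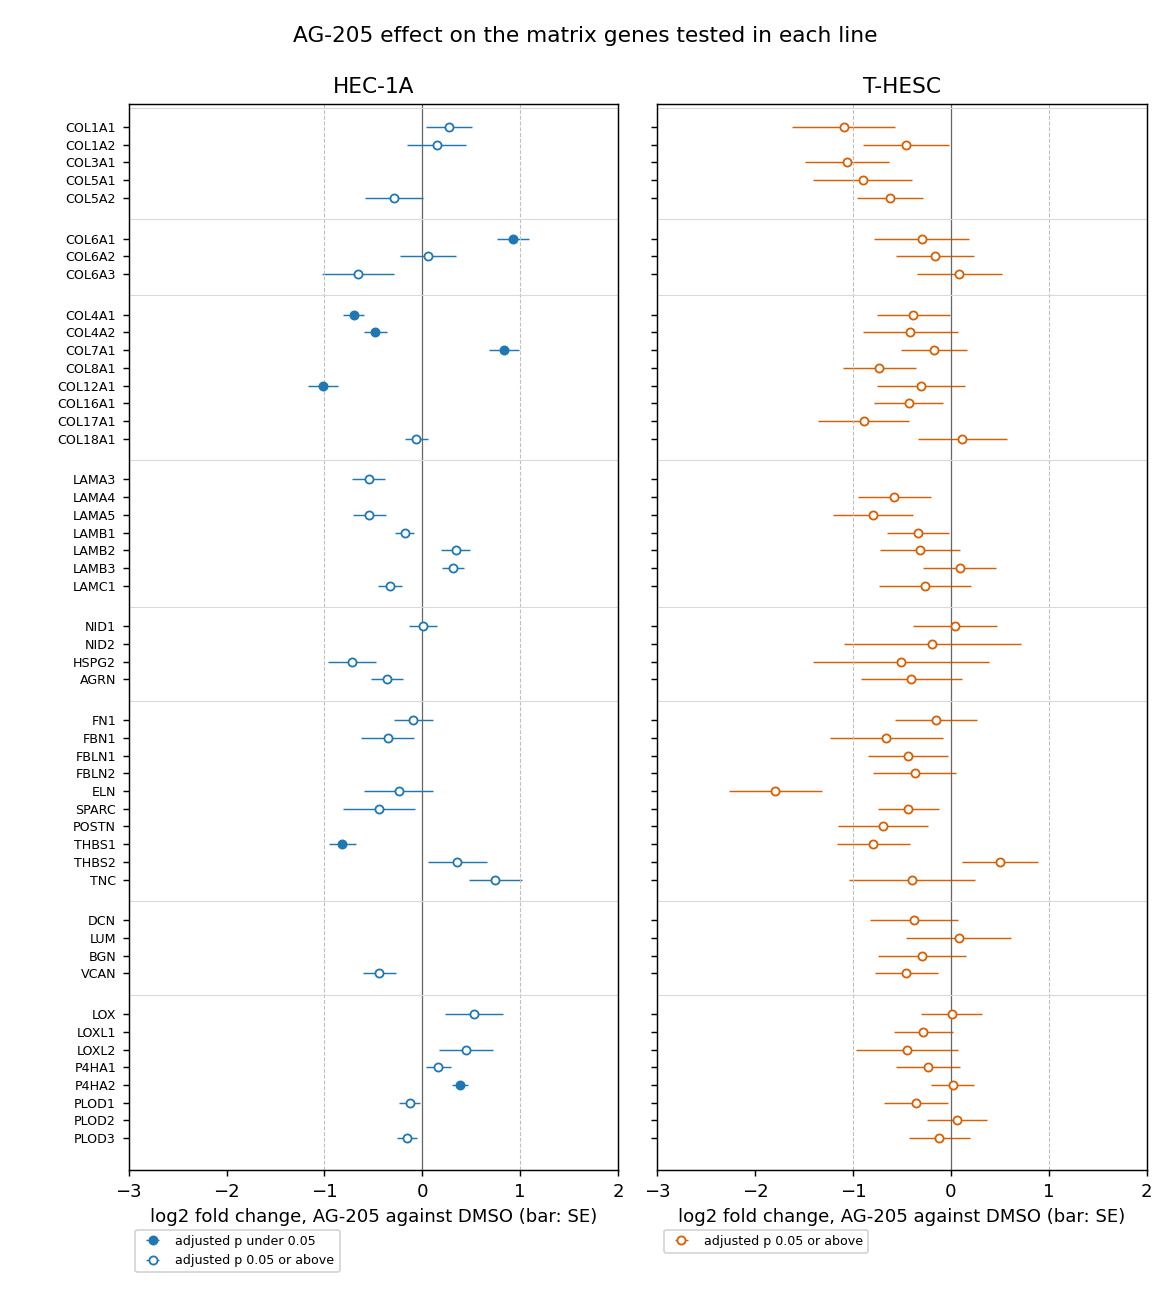
Log2 fold change of AG-205 against DMSO with its SE for the members tested in HEC-1A (left, 34 genes) and T-HESC (right, 48 genes), filled where the adjusted p is under 0.05, with dashed lines at the fold limit of 1 and -1. In HEC-1A 7 points are filled, and in T-HESC 0 are filled while most points lie left of 0 with wider bars.

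ELN had the lowest adjusted p of the members, with 2.18, 1.26 and 1.20 CPM with DMSO and 0.438, 0.459 and 0.432 CPM with AG-205 (log2 fold change -1.79, SE 0.47, adjusted p 0.445). All AG-205 libraries lay below all DMSO libraries, but these levels correspond to 5 to 29 counts. The next largest changes were those of 3 fibrillar collagen chains. COL1A1 was at 11365, 7475 and 7387 CPM with DMSO and at 1375, 4220.2 and 6968 CPM with AG-205 (log2 fold change -1.09, SE 0.52, adjusted p 0.98), also without overlap. COL3A1, the chain of reticular fibrils, was at 2019, 1703 and 1041 CPM and at 442, 609 and 1274 CPM (log2 fold change -1.06, SE 0.43, adjusted p 0.863), and COL5A1 at 830.0, 595 and 639 CPM and at 124, 354 and 653 CPM (log2 fold change -0.90, SE 0.51, adjusted p 0.993), and for both genes the groups overlapped through AG-205 replicate 3. Only COL1A1, COL17A1 and ELN had every AG-205 library lower (3 of 48 members, against 4.7% of all genes), and 0 had every one higher (6.23% of all genes). Per kilobase, COL1A1 stood at 1.15 ± 0.182 times COL1A2 with DMSO and at 0.705 ± 0.212 times with AG-205 (SD, n = 3 each). All AG-205 values (0.480, 0.901 and 0.734 in replicates 1 to 3) lay below all DMSO values, narrowly, since the lowest of these was 0.947. The other chain ratios computed in T-HESC overlapped between the groups, and how often ratios of other gene pairs are apart was not determined. The GC content is 61.5% for COL1A1 and 54.5% for COL1A2, and the part of base composition in the ratio was not tested.

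The AG-205 libraries of T-HESC disagreed with each other over the whole set. The members took 2.14, 3.59 and 5.21% of the counts in AG-205 replicates 1 to 3. Replicate 1 was the lowest of the 6 T-HESC libraries for 36 of the 48 members, where 36.5% of all genes tested were lowest in it, and replicate 3 was the highest for 22, against 23.3%. The median member lay at -1.12 on the log2 scale in replicate 1 relative to the other 5 libraries, at -0.51 in replicate 2 and at 0.38 in replicate 3. HSPG2, which codes for perlecan, had 780.1, 439.9 and 1250.2 CPM with DMSO and 40.6, 609 and 1136 CPM with AG-205, so that 1 library alone was low. LDLRAD2 on the opposite strand overlaps 11.7% of its exon length. Without AG-205 replicate 3 the median log2 fold change of the members was -0.75, against the -0.07 without replicate 1. In the order without replicate 1 and without replicate 3, the log2 fold change of COL1A1 was -0.69 and -1.65, that of COL3A1 -0.80 and -1.58, that of COL5A1 -0.50 and -1.53, and that of ELN -1.83 and -1.76.

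**Figure D4:**
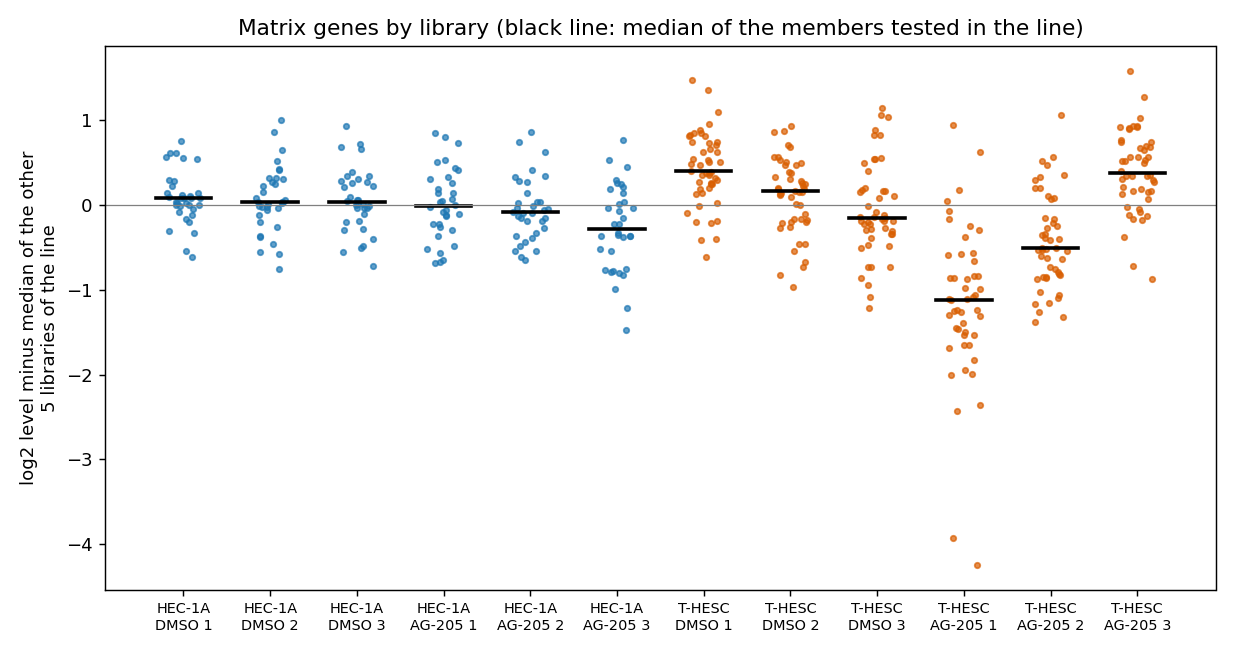
Log2 level of each member in each library minus the median of the other 5 libraries of its line, with 1 point per member tested in the line and a black line at their median. The HEC-1A medians stay within 0.28 of 0, while that of T-HESC AG-205 replicate 1 is at -1.12 and those of T-HESC DMSO replicate 1 and AG-205 replicate 3 are at 0.40 and 0.38.

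The low library also differed over all genes by transcript length and base composition. In T-HESC AG-205 replicate 1 the median gene lay at 0.35 for transcripts under 2 kb and at -0.31 for those over 8 kb, and, with genes split by GC content into 4 equal groups, at 0.25 in the lowest group and at -0.46 in the highest. The members' transcripts had a median GC content of 53.1% against 48.4% for all genes tested. With levels corrected for GC content and transcript length, 0 members were called in T-HESC and their median log2 fold change was -0.32. With libraries weighted by their quality, an alternative chosen after seeing the data, 3 members were called lower: COL3A1, COL8A1 and THBS1, where 0.749% of all genes were called lower and 1.67% higher. The part of length and base composition in the low values was not tested beyond this correction. None of the related lists held a called gene in T-HESC: the smallest p belonged to LAMA1 (log2 fold change 1.20), LOXL4 (mean 48.0 ± 2.83 CPM with DMSO and 24.3 ± 7.77 CPM with AG-205, SD, n = 3), ITGA2 (log2 fold change 1.36) and TGFBR1 (0.31) in the lists of other chains, folding and processing, receptors and TGF-beta genes, and the list medians were 0.14, -0.19, -0.07 and -0.19. Of the markers, 0 of 4 epithelial and 0 of 8 stromal genes tested were called.

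**Figure D5:**
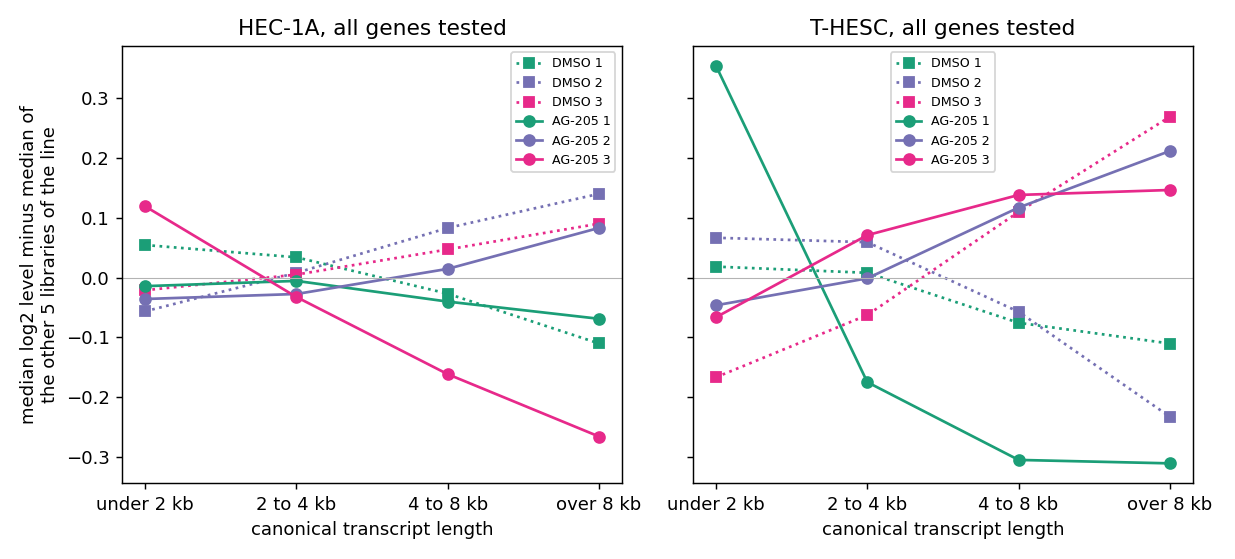
Median log2 level of all genes tested in each length class of the canonical transcript, relative to the other 5 libraries of the line (left HEC-1A, right T-HESC, dotted lines DMSO and solid lines AG-205). T-HESC AG-205 replicate 1 descends from 0.35 to -0.31 with length, and HEC-1A AG-205 replicate 3 from 0.12 to -0.27.

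Whether AG-205 acted differently on the set in the 2 lines was tested with all 12 libraries. Of 48 members, 0 had a difference called higher in T-HESC and 0 lower, against 0.0434% and 0.13% of all genes tested (edgeR). At an unadjusted p under 0.05 there were 2, ELN and COL7A1, against 1025 of the 16132 genes tested. DESeq2 called 0. ELN had a difference of -1.53 ± 0.57 (SE), with an adjusted p of 0.635. COL7A1, which rose in HEC-1A and was at 45.1, 32.1 and 28.5 CPM with DMSO and 17.4, 40.6 and 37.4 CPM with AG-205 in T-HESC, had a difference of -0.98 ± 0.40 (SE) (adjusted p 0.725). DCN (decorin) had a fitted difference of 1.48 ± 1.43 (SE), but 0 to 6 counts in the HEC-1A libraries. BGN (biglycan) and PLOD2 had at most 3 counts in every HEC-1A library, so no difference is given for them. For the collagen IV chains the effects were -0.70 ± 0.10 (SE) in HEC-1A and -0.38 ± 0.37 (SE) in T-HESC for COL4A1, and -0.48 ± 0.12 (SE) and -0.41 ± 0.48 (SE) for COL4A2. THBS1 was at 8035, 6774 and 4803 CPM with DMSO and at 3582, 2412 and 5378 CPM with AG-205 in T-HESC, and its difference between the lines was 0.05 ± 0.39 (SE). In the related lists 0 genes were called, with the smallest p for COL11A2 (difference -1.23), P3H2 (1.60), ITGB8 (1.06) and TGFB1 (-1.39).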

How the data were processed

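RNA from 12 cultures (2 lines, AG-205 or DMSO, 3 libraries per group) was sequenced after poly(A) selection, and per the study's methods the 3 libraries of a group come from independent cultures. The deposited values are counts of reads per gene, which the authors made from trimmed reads. The submitters' processing notes name Trimmomatic 0.38, HISAT2 2.1.0, featureCounts of Subread 2.0.0 and GRCh38. Whether the counting used strand is not given in the sources used here. Of 58735 genes, 23756 had no count in any library. No library was a copy of another.

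The counts were tested with edgeR 4.0.16 in R 4.3.3 (quasi-likelihood test, TMM scaling, filterByExpr, Benjamini-Hochberg adjustment over all genes tested), separately for AG-205 in each line and for the lines with DMSO, and over all 12 libraries for the difference of the AG-205 effects. Calls required a log2 fold change beyond 1 or -1 with an adjusted p below 0.05. SEs are the log2 fold change over the root of the F statistic. Levels are CPM on TMM-scaled totals, per kilobase of the GENCODE 44 canonical transcript where genes are compared. A group whose libraries each held 3 counts or fewer of a gene was taken to be at the floor, with exact intervals for ratios that cover counting error only. An exact permutation test of 3 against 3 libraries cannot go below p = 0.1, so none was used for ratios of chains.

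Members, the 4 lists of related genes (other collagen and laminin chains, collagen folding and processing, receptors, TGF-beta pathway) and the marker lists were chosen with earlier results of these data known. Per-library values were given for members with an adjusted p under 0.05 and the 4 largest changes in each AG-205 comparison (for the difference likewise), and for the extremes of each class between the lines. From each related list, at most 3 called genes were named, or the gene with the smallest p. The values of 1 related gene that this rule names are not reported here, and BGN and PLOD2 get no difference between the lines because they are at the floor in HEC-1A. Other genes named were chosen after their values were seen. Promoter and upstream sequences are from RefSeq (GRCh38.p14), and AGRN, LOXL2, COL5A2, DCN, ELN, COL1A2, COL8A1, COL6A1, COL3A1, COL1A1 and LUM had no window. Alternatives were DESeq2 1.42.0, other size factors, no filter, no fold limit, a replicate block, a fit of all libraries, leaving out each library and, chosen after seeing the data, library quality weights (limma 3.58.1) and a correction for transcript length and GC content (mgcv 1.9.3). The scripts were tested on simulated data.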

Additional observations from a re-analysis of the deposited data

How the results depend on the processing

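Of 120 counts of called members under the alternatives, 108 stayed within 1.5 times the main count and 12 moved. For HEC-1A, the count of members called higher was 1 with library quality weights (COL6A1, log2 fold change 1.01) and 3 with no fold limit, against 0. The count called lower was 4 with no fold limit and 0 in the fit of all 12 libraries, with the GC and length correction and with quality weights, against 1 (COL12A1), and leaving out each library gave 0 to 1. In the fit of all 12 libraries the larger spread of T-HESC enters the error. For the other alternatives the cause was not tested. Quality weights also called 3 members lower in T-HESC, and for the difference between the lines 1 higher (COL12A1) and 2 lower (TNC and COL6A1), against 0 each. The correction and the weights were chosen after seeing the data. Of 407 values of named members, 387 kept their direction and their side of an adjusted p of 0.05, 15 no longer passed, 3 newly passed and 2 reversed. The 7 members that passed in HEC-1A passed in 77 of 91 cases, and the 14 failures were all 7 in the fit of all 12 libraries, 4 of COL4A2 and 3 of P4HA2 when a library was left out. The reversed values were these: the DCN difference was -0.15 with quality weights, and the ELN difference between the lines ran from -0.017 (without T-HESC DMSO replicate 1) to 0.54 when libraries were left out. Over all genes, calls higher and lower numbered 364 and 29 in HEC-1A (135 and 6 in the fit of all 12 libraries), 11 and 0 in T-HESC (100 and 15 by DESeq2, 145 and 36 with no filter, 133 and 27 in the fit of all 12 libraries, 230 and 103 with quality weights, 69 and 3 without AG-205 replicate 1) and 7 and 21 for the difference (29 and 57 by DESeq2, 54 and 87 with no filter, 153 and 227 with quality weights). Depth limits genes such as ELN, at 5 to 29 counts in T-HESC.

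The labels do not say what the replicate numbers mark, and the numbers were not used to pair samples. The correlations between the deviations of same-numbered AG-205 and DMSO libraries were -0.08, 0.23 and 0.00 for the HEC-1A numbers 1 to 3 and 0.22, -0.53 and -0.04 for those of T-HESC. These values do not show whether the numbers mark the 3 culture experiments. With the replicate number as a block, edgeR called 0 members higher and 1 lower in HEC-1A, 0 in either direction in T-HESC and for the difference, and 40 higher and 4 lower between the lines. These calls are the same as without the block. In T-HESC the block moved the median log2 fold change of the members from -0.37 to -0.46, where that of all genes was -0.02 with the block. There, 45 of 48 values were below 0, against 39 without it, and the lowest adjusted p (edgeR) was 0.98.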
